A study of Mus musculus with 59 samples.

Results

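Loss of Brca1 was compared on a background that both groups shared, in 18 of the 59 arrays of a series on serous epithelial ovarian cancer (SEOC) of genetically engineered mice. The 14 Brca1-deficient tumors carried B1 fl/fl together with p53 fl/fl and the K18 tg transgene, and the 4 Brca1-wild type tumors carried p53 fl/fl and K18 tg alone. All 18 were primary ovarian tumors of the published set, in FVB/NJ mice, and the tumors were taken by these genotype labels alone. In both groups an adenoviral Cre vector injected into the ovarian bursa switched on the K18 transgene, which inactivates the RB family under the control of the Krt18 gene, and deleted p53. In the Brca1-deficient group it also deleted Brca1. Cre acts only in cells that the virus reaches, and RNA came from frozen tumor pieces, so each array holds tumor cells together with whatever stroma, vessels and immune cells the piece contained. The ages of the mice were not given in the labels.

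BRCA1 works in homologous recombination, the repair of DNA double-strand breaks from an intact sister copy, where it acts together with PALB2 and BRCA2. Cells without it depend more on end joining and on PARP-linked repair, which is why carriers' ovarian tumors are treated with PARP inhibitors and platinum. HHIP, the gene product on which the comparison turned, is a membrane protein that binds hedgehog ligands and holds them away from their receptor PTCH1.

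As whole profiles, tumors of unlike genotype were no farther apart than Brca1-deficient tumors were from each other. The SD of the log2 difference between 2 arrays had a median of 0.572 over the 56 pairs of tumors of unlike genotype, against 0.645 over the 91 pairs within the Brca1-deficient group and 0.516 over the 6 pairs within the Brca1-wild type group. Array medians lay between 7.34 and 7.469 in Brca1-deficient tumors and between 7.431 and 7.487 in Brca1-wild type tumors. The keratin Krt18, which marks simple epithelium and drives the transgene, was 13.53 ± 0.13 in Brca1-deficient tumors (SD, n = 14) and 13.56 ± 0.18 in Brca1-wild type tumors (SD, n = 4). The 12 markers of tumor epithelium averaged between 9.89 and 11.83 in Brca1-deficient tumors and between 10.37 and 10.93 in Brca1-wild type tumors. Stage could not be separated from genotype: 8 of the 14 Brca1-deficient tumors were labelled stage IV, and of the 4 Brca1-wild type tumors only 1 had a stage, IB. In 2 Brca1-deficient tumors the 4 measured genes of the exocrine pancreas averaged 13.49 (R5855) and 10.17 (tumor 48), against 5.24 to 5.54 in the 4 Brca1-wild type tumors.

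No Brca1 probe set was lower in Brca1-deficient tumors. The brightest of its 4 probe sets, 1424629_at, ran from 9.55 to 11.18 with a median of 10.23 in Brca1-deficient tumors, and from 9.77 to 10.74 in Brca1-wild type tumors. The difference of means was 0.17 (adjusted p = 0.589, exact permutation test over 3060 choices, two-sided, Benjamini-Hochberg over the 4 probe sets). Probe set 1424630_a_at averaged 9.04 ± 0.42 in Brca1-deficient tumors (SD, n = 14) and 8.56 ± 0.50 in Brca1-wild type tumors (SD, n = 4), with an adjusted p = 0.144 by the same exact test. Probe set 1451417_at averaged 7.56 ± 0.24 in Brca1-deficient tumors and 7.19 ± 0.35 in Brca1-wild type tumors, with an adjusted p = 0.115 by the exact test. Probe set 1427698_at, near the bottom of the scale, averaged 4.99 ± 0.23 in Brca1-deficient tumors and 4.92 ± 0.15 in Brca1-wild type tumors. The groups overlapped at every Brca1 probe set, and all 4 differences were above 0. Without the Brca1-wild type tumor R5838, 1424630_a_at was 0.72 and 1451417_at 0.54 higher in Brca1-deficient tumors (exact test, adjusted p = 0.0206 and 0.00588). Without the Brca1-deficient tumor 238721 the differences were 0.56 and 0.40, both at an adjusted p = 0.0277 in the exact test. Of the 18 single omissions only these 2 gave a pass. In tumors with R names alone both probe sets had an adjusted p = 0.619, and with 6-digit names alone 0.429 and 0.143 (exact test). There the smallest p possible before adjustment is 0.0357. None of the sources says whether these probes fall inside the floxed segment, so their levels check no label.

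**Figure D1:**
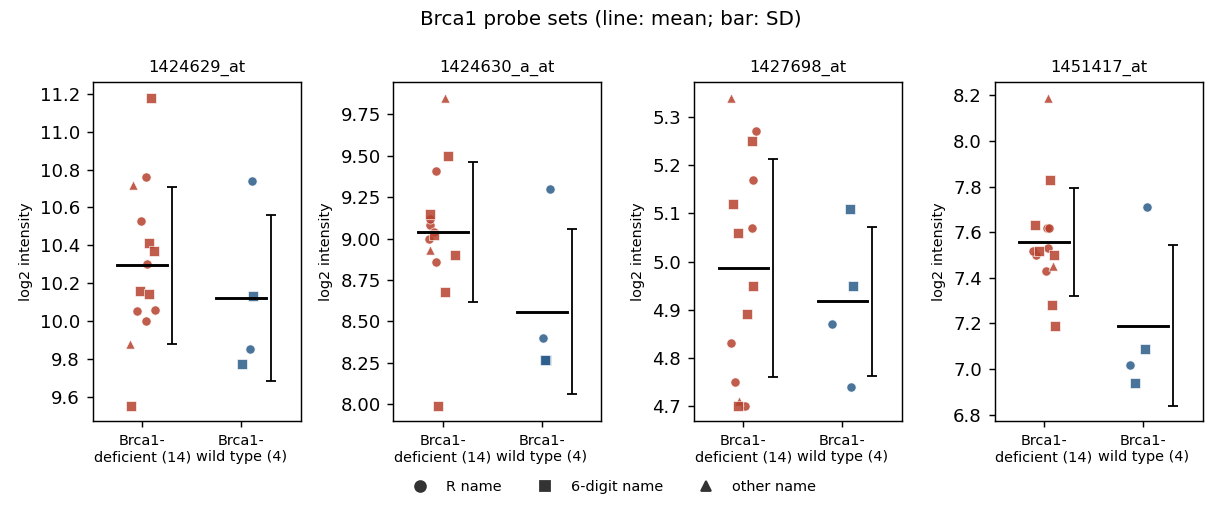
Log2 intensity of the 4 Brca1 probe sets in 14 Brca1-deficient tumors (left) and 4 Brca1-wild type tumors (right); marker shapes give the kind of tumor name, lines the mean and bars the SD. The groups overlap in each panel, and 1451417_at averaged 7.56 against 7.19.

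A single gene passed the test among 18193, and it was Hhip. In limma with Benjamini-Hochberg adjustment over all genes, 1 gene (0.00550% of those tested) had an adjusted p under 0.05, lower in Brca1-deficient tumors, and no gene was higher. At an unadjusted p under 0.05 there were 706 genes (3.88%), 457 higher (2.51%) and 249 lower (1.37%). The median log2 fold change of all genes was 0.03, the median SE 0.17, and for 85.8% of genes the 95% interval lay within a log2 change of 1 in either direction. In simulated data of the same size, the test recovered 71 of 100 genes changed by 1 and 94 of 100 changed by 2. Both groups of 100 genes were changed in the same data, with independent noise of equal spread. The adjustment is less strict when many genes pass, so these rates overstate what a comparison with 1 call could recover. Differences among the Brca1-wild type tumors, described below, were not simulated.

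**Figure D2:**
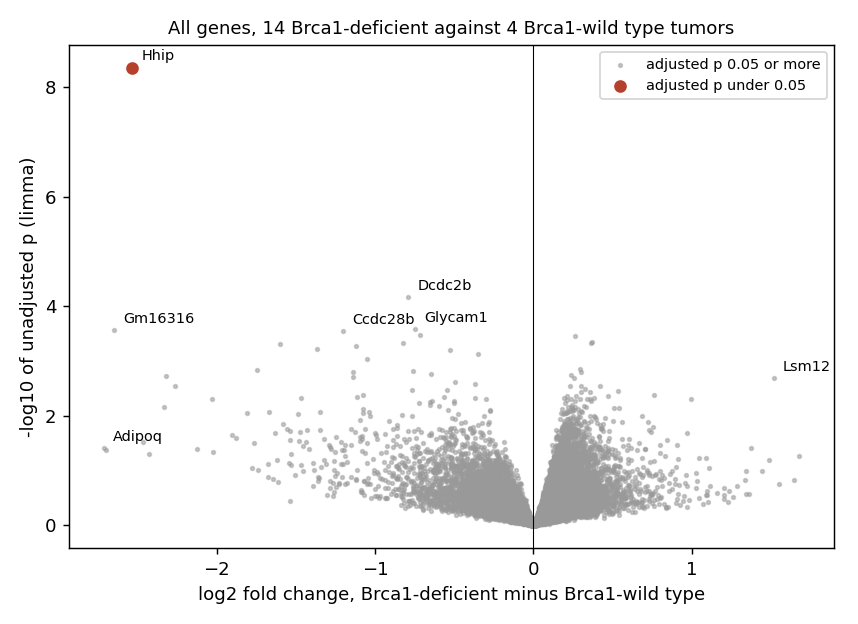
Each point is 1 of 18193 genes, with the log2 fold change of Brca1-deficient minus Brca1-wild type tumors on the x axis and the -log10 of the unadjusted limma p on the y axis. Hhip, at -2.53, is the only gene with an adjusted p under 0.05; the other labelled genes were chosen after their values were seen.

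Hhip had log2 levels of 5.59 at the lowest, 5.84 at the median and 6.38 at the highest of the 14 Brca1-deficient tumors. It had 8.99, 7.75, 7.55 and 9.35 in the Brca1-wild type tumors 195571, 216648, R5810 and R5838. Every Brca1-deficient tumor was below every Brca1-wild type tumor, which held for 2 genes (0.0110%), Hhip and Pigv. In 16 further genes (0.0879%) every Brca1-deficient tumor was above, so the groups did not overlap in 18 genes (0.0989%). The log2 fold change was -2.53 ± 0.24 (SE; 95% interval -3.04 to -2.02; limma, adjusted p = 8.03e-05), or 5.78-fold lower in Brca1-deficient tumors as fitted. No detection calls were used here, so where the Brca1-deficient level of Hhip, or of another probe set with low values, lies at the probes' background, the fold is a lower bound. Hhip passed the test whichever single tumor was left out, with log2 fold changes between -2.82 and -2.22. With all 26 published tumors in the limma fit, which then share 1 estimate of the spread, the same log2 fold change did not pass (adjusted p = 0.57). Its other 3 probe sets also separated the groups. Probe set 1438083_at lay between 4.13 and 4.99 in Brca1-deficient tumors and between 6.19 and 7.80 in Brca1-wild type tumors. Probe sets 1437933_at and 1421426_at had log2 fold changes of -1.89 and -0.87, and neither overlapped between the groups. In bulk tissue, fewer cells that express a gene and less RNA per cell cannot be told apart.

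The other arrays of the series put these levels in context. Hhip was between 5.48 and 5.78 in the 3 Brca1-deficient tumors with p53 missense mutation, and 10.66, 8.99, 5.96, 5.71 and 5.60 in the 5 Brca2-deficient tumors with that mutation. The 3 samples of normal ovarian surface epithelium had 6.24, 8.82 and 9.23. The passaged tumors of the new set were transplants in recipient mice. Its labels mark K18 as a transgene in Brca1-deficient tumors only, and in Brca1-wild type tumors with the sign used for deleted alleles. The paper lists the same K18 transgene for lines of both genotypes. Whether K18 differed was not tested, so contrasts that use the new set may not be of Brca1 alone. In the new set Hhip lay between 5.46 and 5.84 in 18 Brca1-deficient tumors and between 5.55 and 7.21 in 12 Brca1-wild type tumors. The Brca1-wild type tumors of the published p53-deleted group were thus higher than each Brca1-wild type tumor of the new set. In the new set Hhip had a log2 fold change of -0.45 ± 0.14 (SE; limma, adjusted p = 0.0300), fitted with primary or passaged as a covariate and without the near-identical tumors 61362 and 62803, which carry opposite genotype labels. The new-set ranges just given, unlike the fit, include both tumors. That fit called 2238 genes (12.3%), 1310 higher (7.20%) and 928 lower (5.10%). The Brca1 effect on Hhip differed between the sets by 2.08, new minus published (limma interaction, adjusted p = 1.84e-05), as it did for 38 genes in all (0.209%). Tumor 30200 was profiled in both sets. The new passaged Brca1-deficient tumors 64644 and 65021 were also near-identical (SD of the log2 difference 0.072), and with their mean as 1 sample Hhip had -0.46 in the new set (limma, adjusted p = 0.0334). Transplants of 1 line entered as separate samples, so p-values that include the new set can be too small. With the 5 new primary tumors alone the new-set fold change was -0.32, and neither it nor the difference between the sets (2.21, adjusted p = 0.476) passed the limma test.

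**Figure D3:**
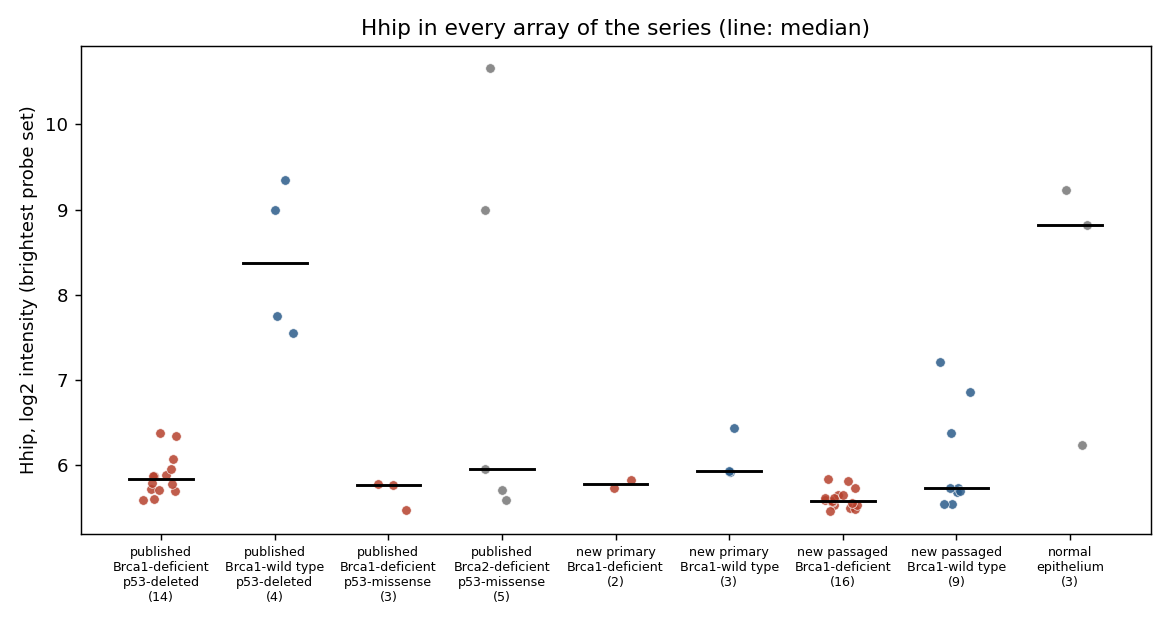
Log2 intensity of Hhip (brightest probe set) in every array, by group, with the number of arrays in brackets and a line at the median. The 4 published Brca1-wild type p53-deleted tumors lie between 7.55 and 9.35, above all 14 Brca1-deficient tumors beside them.

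The rest of the hedgehog pathway, a list added after Hhip was seen, had no further call: of 24 measured genes 1 passed, Hhip itself, and the median log2 fold change was -0.12. The receptor and target gene Ptch1 averaged 12.42 in Brca1-deficient tumors and 12.32 in Brca1-wild type tumors, the target and transcription factor Gli1 5.54 and 5.45, and the ligand gene Dhh 8.18 ± 2.12 and 9.44 ± 0.83 (SD, n = 14 and 4).

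Taken probe set by probe set, a pair of further signals passed the test, each in 1 of a gene's probe sets. Of 34945 probe sets, 6 (0.0172%) had an adjusted p under 0.05: the 4 of Hhip, 1 of Abce1 and 1 of Pnpt1. Abce1 encodes an ATPase that splits ribosomes after translation ends. Its probe set 1442071_at lay between 4.77 and 6.31 in Brca1-deficient tumors and was 9.63, 9.36, 9.96 and 10.23 in the Brca1-wild type tumors, a log2 fold change of -4.44 ± 0.23 (SE; limma, adjusted p = 2.89e-09), or 21.6-fold lower as fitted. The other Abce1 probe sets, 1416015_s_at and 1416014_at, were above 12 in all 18 tumors and had log2 fold changes of -0.02 (95% interval -0.20 to 0.16) and -0.05 (-0.26 to 0.16). The Abce1 reading therefore rests on 1 probe set, which was not the gene's brightest.

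Abce1 and Hhip are neighbours on chromosome 8, with Anapc10 as the only measured gene between them in the RefSeq gene order. Among the 10 measured genes on each side of Hhip, 41 probe sets were tested, and the Abce1 probe set was the only one to pass or to separate the groups. The others had log2 fold changes between -0.52 and 0.65. The 2 Brca2-deficient tumors with high Hhip, 15825 and 23185, had 9.97 and 9.88 at 1442071_at, against 4.74 to 5.71 in the other 3. The normal samples did not share this pairing: with Hhip at 6.24, 8.82 and 9.23, they lay between 4.59 and 7.23 at 1442071_at. In the new set 1442071_at had a log2 fold change of -2.34 ± 0.445 (SE; limma over all probe sets, adjusted p = 0.0013), with the limits given for Hhip. Its difference between the sets did not pass (2.10, limma interaction, adjusted p = 0.16). A new-set tumor could be high at the Abce1 probe set and low for Hhip: the passaged Brca1-wild type tumor 63846 had 9.42 at 1442071_at and 5.73 at the brightest Hhip probe set.

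Pnpt1 encodes the polynucleotide phosphorylase of mitochondria. Its probe set 1452677_at lay between 9.57 and 10.32 in Brca1-deficient tumors and was 6.13, 6.37, 5.95 and 5.95 in the Brca1-wild type tumors, a log2 fold change of 3.81 ± 0.13 (SE; limma, adjusted p = 2.28e-12), or 14.1-fold higher. The groups stood more than 3 log2 units apart. The other Pnpt1 probe sets went the other way without passing: 1452676_a_at had -0.66 ± 0.21 and 1444288_at -0.23 ± 0.20 (SE; adjusted p = 0.955 for both). Pnpt1 is on chromosome 11, as is Brca1, with Brca1 955 measured genes further along. At 1452677_at the normal samples lay between 9.22 and 10.38, 1 of the 3 Brca1-deficient tumors with p53 missense mutation was at 5.92, and the new Brca1-wild type tumors ran from 5.79 to 9.87. The new Brca1-deficient tumors ran from 6.94 to 10.78. In the new set 1452677_at had 2.71 ± 0.41 (SE; limma over all probe sets, adjusted p = 0.000176), with the limits given for Hhip. Its difference between the sets did not pass (-1.11, limma interaction, adjusted p = 0.45). Probe sequences were not used here, and why the probe sets of 1 gene differed was not tested.

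**Figure D4:**
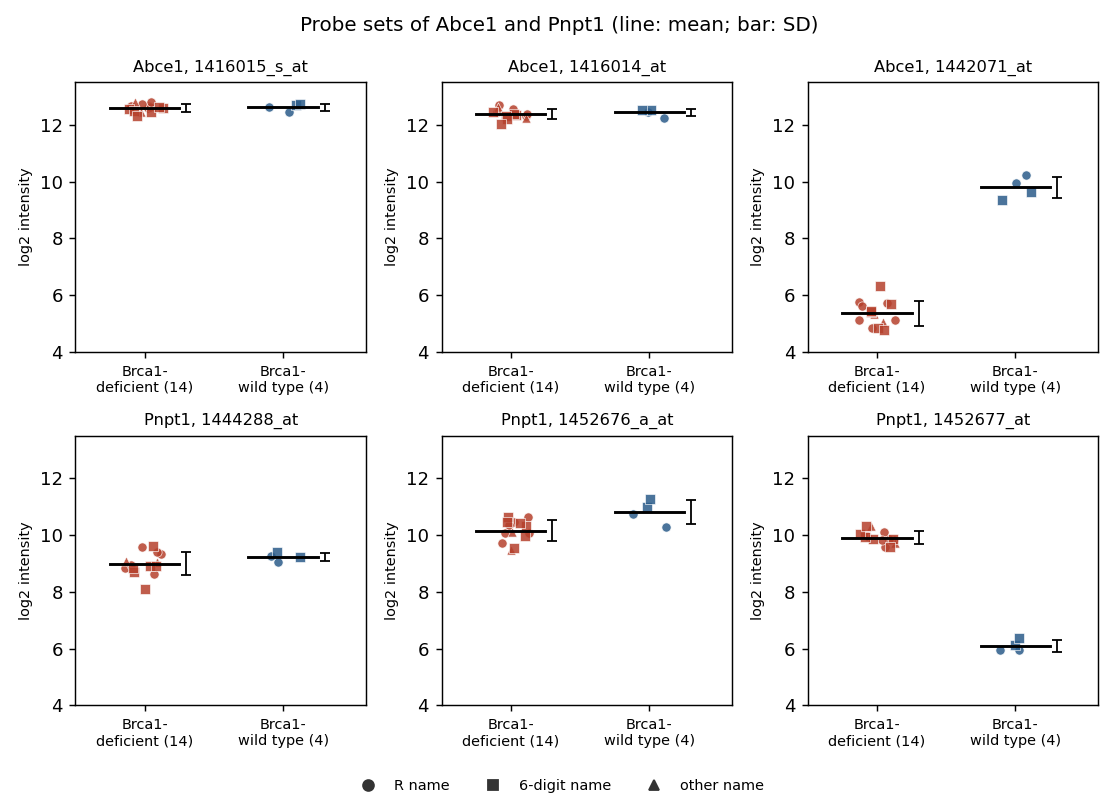
Log2 intensity of the 3 Abce1 probe sets (top) and 3 Pnpt1 probe sets (bottom) in 14 Brca1-deficient tumors (left in each panel) and 4 Brca1-wild type tumors (right); lines are means and bars SDs. In each row only the right-hand probe set separates the groups, at 4.77 to 6.31 against 9.36 to 10.23 for Abce1 and 9.57 to 10.32 against 5.95 to 6.37 for Pnpt1.

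No gene of the DNA repair lists passed the test, which only 1 of 18193 genes (0.00550%) passed. At an unadjusted p under 0.05 in limma stood 3.88% of all genes, so few would be due in lists of this size. Of 35 measured genes of homologous recombination none passed and none reached an unadjusted p of 0.05, with a median log2 fold change of 0.03 and a range of -0.40 to 0.46, against 0.03 over all genes. Uimc1, which brings the BRCA1-A complex to ubiquitin at breaks, and Top3a, a topoisomerase that dissolves recombination intermediates, had the smallest p, at log2 fold changes of -0.40 ± 0.22 and 0.19 ± 0.12 (SE), and Top3a was at 0.01 without R5810. Brca2, a partner of Brca1 in this repair, averaged 10.39 ± 0.59 in Brca1-deficient tumors (SD, n = 14) and 10.35 ± 0.54 in Brca1-wild type tumors (SD, n = 4). The 18 genes of end joining had a median of 0.06, led by the polymerase Poll at 0.16 and Trp53bp1, the factor that shields breaks from resection, at -0.22. The 15 measured Fanconi anemia genes had a median of 0.04, led by the ubiquitin-conjugating enzyme Ube2t at 0.35 and the helicase Brip1 at 0.40. The 17 genes of PARP and single-strand break repair had a median of -0.04. Among them Parp1, the main PARP enzyme, averaged 12.36 ± 0.13 in Brca1-deficient tumors and 12.41 ± 0.11 in Brca1-wild type tumors (SD, n = 14 and 4; 95% interval of the difference -0.21 to 0.13). Parp3 and the repair polymerase Polb had the smallest p there, at -0.48 and -0.17. The 21 checkpoint genes had a median of 0.04, led by Rpa3, a subunit of the single-strand binding complex, at 0.24 and the clamp subunit Rad1 at 0.48. Each rested on 1 Brca1-wild type tumor: Rad1 was at 0.06 without 216648, and Rpa3 at 0.07 without R5810. H2ax, the histone phosphorylated at breaks, had a difference of 0.07 ± 0.28 (SE).

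The p53 and RB lists, whose regulators were disabled in both groups, had no call. The 21 p53 target genes had a median log2 fold change of 0.05, led by the cell death gene Bbc3 at 0.22 and Trp53inp1 at 0.24. The 22 genes of the RB pathway had a median of -0.04, with Rb1 at 0.22 ± 0.19 and E2f2 at -0.21 ± 0.23 (SE). Of the 28 mitosis genes, 27 had a value above 0, the median was 0.18, none passed, and the spindle checkpoint gene Mad2l1 (0.45) was the only one at an unadjusted p under 0.05, followed by the kinetochore gene Ndc80 (0.39). These genes tend to vary together between tumors, so their number above 0 is not a count of separate results. The mitosis list averaged between 10.23 and 11.52 in Brca1-deficient tumors and between 10.30 and 11.34 in Brca1-wild type tumors. Mki67, the proliferation marker, differed by 0.02 ± 0.21 (SE). The 28 replication genes had a median of 0.08, led by the helicase factors Gins2 and Cdc45, both at 0.35.

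Among lists of cell signalling and metabolism, the one call was that of Hhip in the list of Notch, Wnt and hedgehog genes, whose 23 measured members had a median of -0.05. The list of hypoxia and glycolysis genes had a median of 0.24, with 18 of 19 above 0 and 3 at an unadjusted p under 0.05, against 2.51% of all genes in that direction. None passed after adjustment. Its smallest p belonged to Ankrd37, a gene induced in hypoxia, at 0.44 ± 0.16, and to the glycolytic enzyme Pgk1 at 0.20 ± 0.08 (SE). The 19 growth factor receptor and Myc genes had a median of 0.07, with Met at -0.35 and Mycl at 0.65, and the 18 drug efflux and platinum transport genes a median of 0.00, with the excision repair gene Xpa at 0.48 and the copper and platinum importer Slc31a1 at 0.35. The 16 ubiquitin and BRCA1 partner genes had a median of 0.01, led by Ubxn1 at 0.36 and the mitotic kinase Aurka at 0.48.

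Lineage, immune and matrix lists had no call, and all but the epithelial one had a median below 0. The 24 epithelial identity genes had a median of 0.06, with the splicing regulator Esrp1 at 1.34 ± 0.77 and the keratin Krt17 at 0.79 ± 0.52 (SE). The 19 Mullerian and serous lineage genes had a median of -0.31. Msln, which encodes the serous surface protein mesothelin, averaged 9.33 ± 1.16 in Brca1-deficient tumors (SD, n = 14) and 10.86 ± 0.89 in Brca1-wild type tumors (SD, n = 4), and Hoxa10, a patterning gene of the uterus, had -1.28 ± 0.57 (SE). The 27 interferon response genes had a median of -0.22, with the chemokine gene Cxcl9 at -0.50 and the GTPase gene Gbp3 at -0.81. The 15 MHC antigen presentation genes had a median of -0.20, with the class I regulator Nlrc5 at -0.94 and the light chain B2m at -0.16. The epithelial to mesenchymal transition list had a median of -0.40 over 17 genes, with the transcription factor Twist2 at -0.52 and Tgfb2 at -0.50. The extracellular matrix list had -0.34 over 25 genes, with the collagen gene Col5a1 at -0.52 and Postn, a matricellular protein of stroma, at -1.68 ± 0.89 (SE). Over all 34 lists, 1 of 514 measured genes passed, and 22 (4.28%) had an unadjusted p under 0.05, against 3.88% of all genes.

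The cell type lists with the lowest medians were those of stroma, fat and B cells, and in them the 4 Brca1-wild type tumors fell into unlike pairs. The names of the tumors are of several kinds, and 6 Brca1-deficient and 2 Brca1-wild type tumors have R names, while 6 and 2 have 6-digit names. What the kinds stand for is not given in the labels. Leptin, Lep, a hormone of adipocytes, was between 4.84 and 5.60 in the 14 Brca1-deficient tumors. In the Brca1-wild type tumors it was 10.00 in R5810 and 8.90 in R5838, but 5.01 in 195571 and 4.73 in 216648. The adipocyte list averaged 11.62 in R5810 and 10.36 in R5838, above the 8.47 of the highest Brca1-deficient tumor, and 5.37 and 6.15 in the other Brca1-wild type tumors. The list lay between 7.61 and 8.50 in the normal samples. The B and plasma cell list averaged 7.33 in R5810 and 7.96 in R5838, against 5.75 and 5.89 in the 6-digit Brca1-wild type tumors and 5.70 to 6.49 in the Brca1-deficient tumors. Ighm, the heavy chain of IgM, was 9.89 and 11.31 in the tumors with R names, and 7.56 and 7.46 in those with 6-digit names, while the Brca1-deficient tumors lay between 7.32 and 8.33. The fibroblast list averaged 11.16 in R5810 and 10.40 in R5838, against 8.51 and 8.50 in the other pair.

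Calls between the genotypes depended on which Brca1-wild type tumors were used. In the R-named tumors alone, 6 against 2, limma called 98 genes (0.539%), 4 higher and 94 lower in Brca1-deficient tumors. In the 6-digit tumors alone, also 6 against 2, it called 2 genes (0.0110%), both lower. Of the 98, 85 had the opposite sign in the 6-digit tumors. The falls in R-named tumors included adipocyte genes (Adipoq, the hormone adiponectin, at -7.07 and Lep at -4.38), stromal genes (Dpt at -5.48 and Postn at -4.72), smooth muscle genes (Myh11 at -3.55) and immunoglobulin genes (Ighm at -3.00). Cst9, a cystatin gene, fell most clearly, at -4.73 ± 0.18 (SE; limma, adjusted p = 7.76e-05), with 5.19 to 7.61 in all Brca1-deficient tumors against 10.39 and 9.72 in R5810 and R5838. The 2 calls in the 6-digit tumors were Mndal, an interferon-inducible gene of the Ifi200 family, at -2.41 ± 0.18, and Gm10033 at -2.30 ± 0.20 (SE). Mndal was between 3.75 and 4.39 in the 14 Brca1-deficient tumors, 6.81 in 195571 and 6.31 in 216648, and 4.30 and 4.18 in R5810 and R5838. The Brca1 effect differed between the kinds of name in 50 genes (0.275%), 46 of them with the more negative effect in R-named tumors (limma interaction over 16 tumors). The part of other cell types in these calls was not tested. Hhip was called in the R-named tumors (-2.59, adjusted p = 0.0467) and had -2.45 in the 6-digit tumors (adjusted p = 0.225), and its effect did not pass a test of difference between the kinds (-0.14, adjusted p = 0.975).

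**Figure D5:**
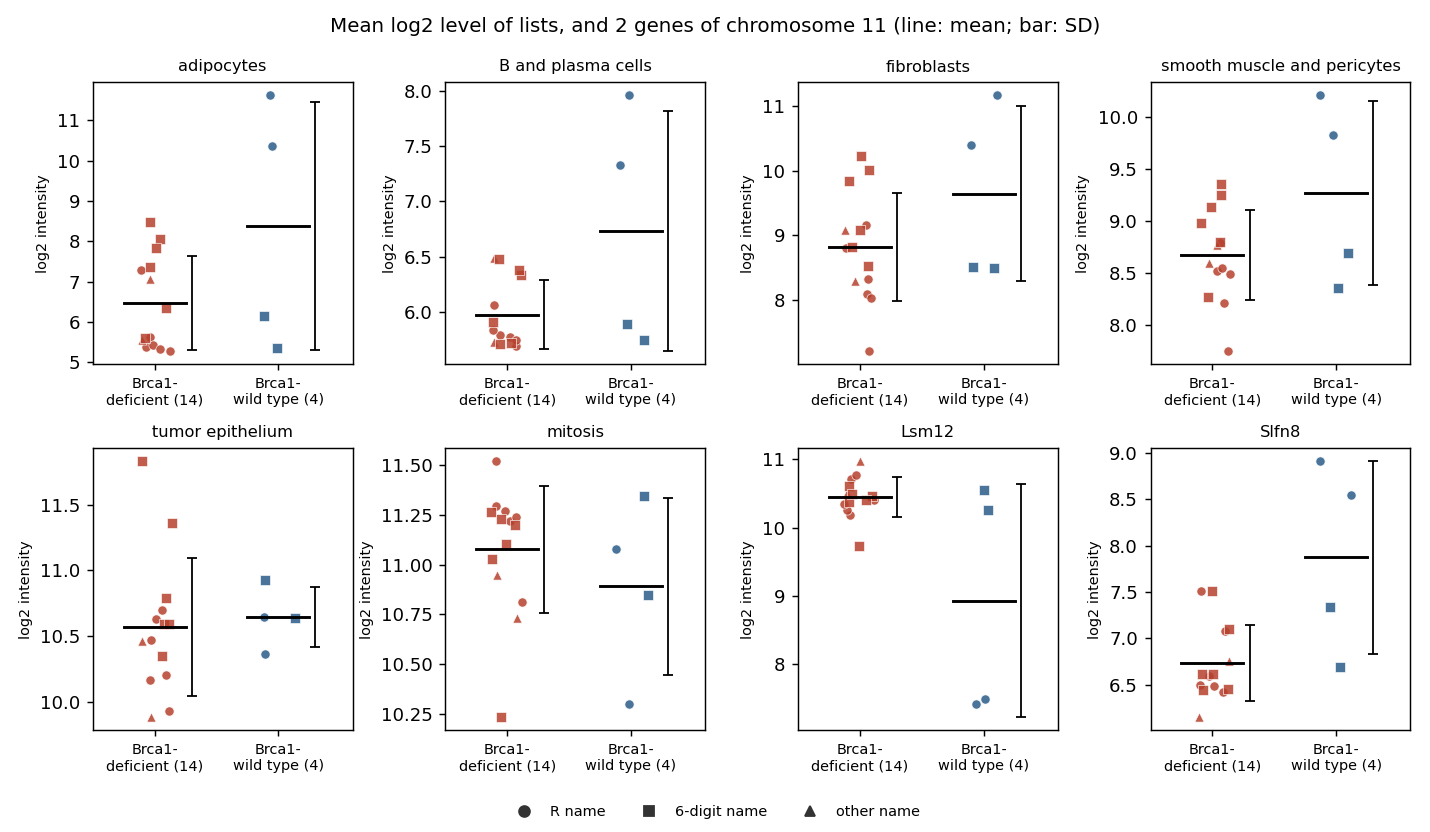
Mean log2 level of 6 gene lists, and log2 level of Lsm12 and Slfn8, in 14 Brca1-deficient tumors (left) and 4 Brca1-wild type tumors (right); circles are R-named, squares 6-digit and triangles other tumors, lines are means and bars SDs. R5810 and R5838 stand above the rest for adipocytes (11.62 and 10.36) and below it for Lsm12 (7.49 and 7.43).

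The other cell type lists had no call. The T and NK cell list (10 genes) had a median of -0.10, with Cd3g at -0.56 and Nkg7 at -0.26, and the macrophage list (12) of -0.11, with Adgre1 at -0.38 (0.08 without R5810) and Csf1r at -0.34. The neutrophil list (6) had a median of -0.39, with Elane at -0.24 and Mpo at -0.77 (0.26 without R5810), the endothelial list (9) of -0.31, with Vwf at -0.52 and Kdr at -0.54, and the smooth muscle and pericyte list (8) of -0.56, with Myh11 at -1.63 and Cnn1 at -0.63. The fibroblast list (10) had a median of -0.74, with Postn and Dpt both at -1.68, the B and plasma cell list (7) of -0.54, with Ms4a1 at -0.54 and Ighm at -1.35, and the adipocyte list (4) of -1.78, with Lep at -2.03 and Cidec at -1.35. In 6-digit tumors alone these lists, from T and NK cells to adipocytes, all had medians above 0, between 0.115 (endothelium) and 1.26 (adipocytes). The tumor epithelium list (12) stood at -0.05, with Krt19 at -0.19. Granulosa, theca and luteal genes (9; Inha at 0.64, Amh at 0.06), oocyte genes (10; Figla at 0.13, Nlrp5 at 0.14), red cell genes (3; Slc4a1 at -0.59, Hba-a1 at 0.11) and striated muscle genes (5; Mylpf at 0.26, Ckm at 0.05) had medians between -0.02 and 0.11. The exocrine pancreas list (4) had a median of 1.28, with Cela1 at 1.55 ± 1.10 and Cpa1 at 1.34 ± 1.17 (SE), and its high values were those of R5855 and tumor 48 given above.

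Around Brca1 itself no neighbour passed the test. Among the 25 measured genes on each side, 3 of 50 (6%) had an unadjusted p under 0.05, against 3.88% of all genes, and the median log2 fold change was 0.03. The splicing-factor-like gene Lsm12, 18 places from Brca1, was between 9.73 and 10.97 in Brca1-deficient tumors and 10.55, 10.25, 7.49 and 7.43 in 195571, 216648, R5810 and R5838, so that it was called in R-named tumors (2.99 ± 0.18, SE; adjusted p = 0.000388) and at -0.06 ± 0.23 in 6-digit tumors. Aoc3, an amine oxidase gene 9 places from Brca1, was the other neighbour called in R-named tumors, in the opposite direction (-2.69, limma adjusted p = 0.0196), and had 0.46 in 6-digit tumors. Slfn8, a Schlafen gene elsewhere on chromosome 11, split the same tumors, with 6.15 to 7.51 in Brca1-deficient tumors against 7.34, 6.69, 8.55 and 8.91. At Lsm12 and Slfn8 the Brca1-wild type tumors with 6-digit names lay within the range of the Brca1-deficient tumors.

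After Hhip, the genes nearest to the threshold missed it. The 4 next by p, chosen after their values were seen, were Dcdc2b (-0.79 ± 0.15, adjusted p = 0.616), Glycam1 (-0.75 ± 0.17), Gm16316 (-2.65 ± 0.59) and Ccdc28b (-1.20 ± 0.27; SE, adjusted p = 0.794 for these 3, limma). Dcdc2b, a doublecortin-domain gene, was between 6.55 and 7.68 in Brca1-deficient tumors and 7.90, 7.41, 7.71 and 7.61 in Brca1-wild type tumors. Gm16316 was again high in R5810 and R5838, at 10.68 and 11.38, against 7.72 and 7.55 in 195571 and 216648 and 5.45 to 7.88 in Brca1-deficient tumors. Dcdc2b passed when the Brca1-deficient tumor 235132 was left out (-0.85, limma adjusted p = 0.00428), and Glycam1, an adhesion ligand of lymph node vessels, when the Brca1-wild type tumor 195571 was left out (-1.04, limma adjusted p = 0.000584).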

How the data were processed

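RNA from frozen tumor pieces was amplified and hybridized to Affymetrix mouse arrays, 1 per tumor. The authors deposited log2 values from RMA, whose version was not given in the sources used here, for 45037 probe sets, between 3.25 and 14.31. RMA scales arrays to a common distribution, so a shift shared by most genes would not show. The merged log2 table that the authors deposited served as an alternative for 6167 genes, and 278 of its columns, of other samples, were left aside.

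By the platform annotation 34945 probe sets had 1 gene symbol, 932 several and 9160 none. Each of 18193 genes took its brightest probe set, and 9010 had more than 1. The genotype test was that of limma 3.58.1 (R 4.3.3, functions lmFit and eBayes; tables read with the data.table package, version 1.17.8), two-sided, with Benjamini-Hochberg adjustment over all genes (threshold 0.05). Brca1 probe sets were tested by exact permutation in Python. The pipeline was tested on simulated data, where 11 of the other genes were called. Genes named were Brca1, the largest passing changes, up to 4 passing members of each list or, without a call, its 2 members with the smallest p, the repair and drug response genes Brca2, H2ax, Parp1, Mki67 and Rb1, and passing neighbours of Brca1. A further gene of the rule is not reported here. Others were chosen after their values were seen. The members and lists were chosen with earlier results of these data known. Gene order came from RefSeq (GRCm38.p6), which is used for names and neighbours only, since the array files name no build. No label says whether the tumors came from separate mice, so p-values measure the spread between these samples. The number of arrays limits the precision.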

Additional observations from a re-analysis of the deposited data

Results flagged for a closer look

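Among the 4 Brca1-wild type tumors, 110 sets of values were searched for 1 tumor far from the other 3, and 5 were found, where chance gives about 1 in 20. Rad1 was 7.56 in 216648 and 9.09 to 9.31 in the others. Tgfb2 was 10.68 in R5838 and 11.18 to 11.19 in the others. Mpo, a neutrophil gene, was 8.77 in R5810 and 4.57 to 4.71 in the others. Smo was 10.02 in 216648 and 9.47 to 9.50 in the others. The Brca1 probe set 1424630_a_at was 9.30 in R5838 and 8.27 to 8.40 in the others.

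For 4 of the named genes the Brca1 effect differed between the sets, new minus published, in the limma interaction, and for 38 of all 18193 genes (0.209%). Of the 4, Lsm12, Cst9 and Ccdc28b were chosen after their values were seen, so their number is not a separate result. The limit set by the K18 labels of the new set, given above, holds here too. The difference was 2.08 for Hhip (adjusted p = 1.84e-05), 1.90 for Lsm12 (0.0107), 3.94 for Cst9 (0.00873) and 1.45 for Ccdc28b (0.0412). Lsm12 ran in the same direction in both sets, at 3.41 in new-set and 1.52 in published tumors, while Cst9 had 1.68 in new-set tumors (adjusted p = 0.00631) and -2.26 in published tumors, which did not pass in limma (adjusted p = 0.98).

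Between the kinds of tumor name, R-named minus 6-digit, the Brca1 effect differed for 14 named genes, and for 50 of all 18193 genes (0.275%). Of the 14, only Lep, Sfrp1, Ighm, Dpt and Cidec were named by the rule. The others were chosen after their values were seen, so the number 14 is not a separate result. Among fat and stromal genes the differences were -9.05 for Adipoq, -7.87 for Dpt, -5.89 for Sfrp1, -4.71 for Lep and -3.71 for Cidec. Among B lineage genes they were -3.21 for Ighm, -3.32 for Pou2af1, -3.33 for Igkv6-15, -2.63 for Igkv6-14 and -1.08 for Ighv14-2. Cst9 had -4.66. In the other direction stood Lsm12 at 3.04, Gm10033 at 2.47 and Mndal at 2.18. Adjusted p-values ran between 1.63e-05 and 0.0287.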

How the results depend on the processing

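The single call of the 18-tumor comparison, Hhip, stood alone again with array weights, with trend and robust settings, with the kind of name as a covariate and with quantile normalization of the arrays. Leaving out 1 tumor at a time gave 1 to 3 calls, Hhip always among them. The added genes were Dcdc2b without 235132, Glycam1 without 195571, and Khdc1b and Igkv6-14 without 216648. The count was 3 with probe sets averaged by gene (Abce1, Hhip and Pnpt1), 6 with every probe set on its own, 98 in R-named and 2 in 6-digit tumors alone. It was 0 among the 9097 genes at or above the median level, where Hhip was not tested (170 genes at an unadjusted p under 0.05), and 0 with all 26 published tumors in the limma fit (783 genes), where Hhip kept -2.53 at an adjusted p = 0.57. The merged table called 1 gene, Abce1, and did not hold Hhip. Chosen after seeing the data, leaving out the Brca1-wild type tumors with R names gave 3 calls and leaving out those with 6-digit names gave 86, with Hhip among both.

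For the difference between the sets, 38 genes passed, 26 with all new-set tumors and 0 with new-set primary tumors alone (1071 at an unadjusted p under 0.05). It was 39 with 64644 and 65021 as 1 sample, an alternative chosen after seeing the data. The new-set log2 fold change of Hhip was -0.45, and -0.32 in primary tumors alone, which did not pass. Leave-one-out differences of the Brca1 probe sets ran from 0.05 to 0.38 (1424629_at), 0.38 to 0.72 (1424630_a_at), 0.01 to 0.13 (1427698_at) and 0.28 to 0.54 (1451417_at). Of 2901 recomputed fold changes of 100 named genes, 40 gained a call, 2 lost it and none with a call changed sign, while values without a call changed sign 99 times. No paired analysis was possible because the labels give the groups no shared replicate numbers.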
